A study of Mus musculus with 4 samples.

Results

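Type 37_Novel is 1 of 45 types of retinal ganglion cell (RGC) in a map of the mouse retina, and its members were taken as every cell that the deposited table assigns to it. There were 858 such cells among 131379, and all were of class RGC. The study imaged puncta of 300 genes in en face sections, cut parallel to the retinal surface, of 5 wild-type C57BL/6 retinas from mice kept without manipulation. The age and sex of the mice are not given in the sources used here, and no group was treated. Retinas 1 to 5 held 211, 264, 84, 201 and 98 of the cells. The cells came from 36 of 41 sections.

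RGCs are the output neurons of the retina. Each type collects signals from amacrine and bipolar cells through its own dendrites and sends its axon through the optic nerve to the brain. Types differ in the genes for ion channels, transmitter receptors and adhesion molecules that they express, and the cell bodies of many types are spaced apart from others of their own type. The word in the type's name is used in RGC atlases for clusters that had no matched type when they were found. Among the better known RGCs, alpha cells have large cell bodies and are marked by Spp1, the secreted protein osteopontin.

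The 5 retinas held 4.05e+06 to 1.29e+07 puncta in all, of which 26462 to 82666 lay in 37_Novel cells. The cells made up 0.601, 0.643, 0.640, 0.725 and 0.682% of all RGCs in retinas 1 to 5, or 0.658% ± 0.047 (SD, n = 5). This placed 37_Novel at rank 41 of the 45 types by share. A median 37_Novel cell held 323, 276.5, 306, 249 and 323 puncta in retinas 1 to 5, against 326, 297, 284, 295 and 304 in the other cells. Single cells ranged from 102 to 1140 puncta.

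The gene with the greatest excess in 37_Novel was Cnr1, the cannabinoid receptor of neurons. Its level was 14.3, 14.5, 13.9, 13.9 and 15.6 puncta per 1000 puncta in the 37_Novel cells of retinas 1 to 5, against a mean of 1.53 in the 44 other types. The difference was 3.24 ± 0.06 on the log2 scale (SD, n = 5), and all 5 retinas lay far above the next type, 18_Novel, at 5.25. When each cell was thinned to 100 puncta, Cnr1 was seen in 62.9% of 37_Novel cells and in 12.2% of other cells; without thinning these shares were 80.7% and 28.1%. Because types may have been assigned from the same genes, levels between types are given as a description with no test. Errors after ± are SDs over the 5 retinas unless marked as SE.

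Another 3 genes had a higher level in 37_Novel than in any other type. Htr1b, a serotonin receptor, had 5.86 ± 0.14 puncta per 1000 in 37_Novel and 4.25 in the next type, 25_Novel. Hcn2, a channel opened by hyperpolarization, had 5.03 ± 0.24 in 37_Novel and 4.70 in 43_AlphaONS, a gap close to the spread between retinas. Frmd5, a FERM domain protein, had 5.41 ± 0.46 in 37_Novel and 5.37 in 42_AlphaOFFS, which was within that spread.

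The other genes with a high level included those of 4 receptors. Tacr3, the receptor for neurokinin B, had 1.77 ± 0.37 puncta per 1000 in 37_Novel, against 0.277 in the other types, with 36_Novel and 25_Novel above it. Grm5, a metabotropic glutamate receptor, had 2.80 ± 0.29 in 37_Novel and 1.15 in the other types, with 44_Novel and 02_W3D1.2 above it. Gabrg1, a GABA-A receptor subunit, had 2.45 ± 0.39 in 37_Novel and 1.05 in the other types, with 14_ooDS_Cck, 17_Tbr1_S1 and 18_Novel above it. Gprc5b, an orphan receptor, had 29.4 ± 0.97 in 37_Novel and 9.99 in the other types, second to 43_AlphaONS.

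Genes for adhesion, channel subunits and secreted factors were also high. Cdh8, a cadherin, had 9.73, 9.91, 9.98, 9.40 and 9.23 puncta per 1000 in retinas 1 to 5, against 1.65 in the other types. Only 09_Tbr1_Novel had more Cdh8, at 10.7. Scn4b, a sodium channel beta subunit, had 3.35 ± 0.51 in 37_Novel and 1.14 in the other types. It was higher in 42_AlphaOFFS at 6.35, 39_Novel at 5.54, 45_AlphaOFFT at 4.95 and 34_Novel at 3.75. Kcnab3, a potassium channel beta subunit, had 7.05 ± 0.67 in 37_Novel and 3.17 in the other types, with 7.84 in 22_M5. Fgf1, a growth factor, had 58.3 ± 5.26 in 37_Novel and 20.3 in the other types, with 61.3 in 41_AlphaONT and 66.5 in 43_AlphaONS. Igf1, an insulin-like growth factor, had 10.99 ± 0.87 in 37_Novel and 4.21 in the other types. It was higher in 22_M5 at 23.1, 40_M1dup at 20.5, 10_Novel at 14.2 and 27_Novel at 12.9. 08_Novel at 11.9 and 31_M2 at 11.7 also had more Igf1. Lpl, a lipase, had 6.62 ± 0.90 in 37_Novel and 1.69 in the other types, with 7.09 in 45_AlphaOFFT. The transcription factors Irx3 and Onecut1 exceeded the mean of the other types by 1.54 and 1.40 on the log2 scale. Both were higher still in 18_Novel and 27_Novel, at 4.18 and 3.73 for Irx3 and 6.87 and 6.08 for Onecut1. Irx3 was highest in 44_Novel, at 5.83, and Onecut1 had 5.91 in 07_Novel. In 37_Novel they stood at 2.75 and 5.47.

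A further group of genes had a low level in 37_Novel. Penk, the precursor of the enkephalin peptides, had 0.656, 0.411, 0.945, 0.553 and 0.533 puncta per 1000 in retinas 1 to 5, against 5.13 in the other types. A few types raised that mean, with 53.9 in 19_Novel, 51.2 in 20_Novel and 38.4 in 06_W3B. Penk was as low elsewhere, at 0.762 in 41_AlphaONT, 0.713 in 42_AlphaOFFS and 0.550 in 43_AlphaONS. Jam2, Arpp21, Cd83 and Cacnb3 had their lowest mean of the 45 types here. For Arpp21, Cd83 and Cacnb3 the next types (05_J-RGC, 45_AlphaOFFT at 0.365 and 43_AlphaONS at 5.09) lay within the spread between retinas. Jam2, the adhesion molecule that marks J-RGCs, had 1.18 ± 0.07 in 37_Novel and 5.58 in the other types. Arpp21 had 1.18 ± 0.16 in 37_Novel and 5.51 in the other types, and Cd83 had 0.330 ± 0.125 in 37_Novel and 1.63 in the other types. Cacnb3, a calcium channel beta subunit, had 5.05 ± 0.38 in 37_Novel and 9.72 in the other types. Gabrg3, Scn3b and Rprm lay between -2.57 and -2.65 on the log2 scale, and Pcdh8, Kitl and Ppp1r17 between -1.82 and -2.08. Each of these genes was lower still in some other type. 43_AlphaONS had 0.418 of Gabrg3, 0.251 of Scn3b and 0.325 of Ppp1r17, against 0.537, 0.434 and 0.501 in 37_Novel.

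**Figure D1:**
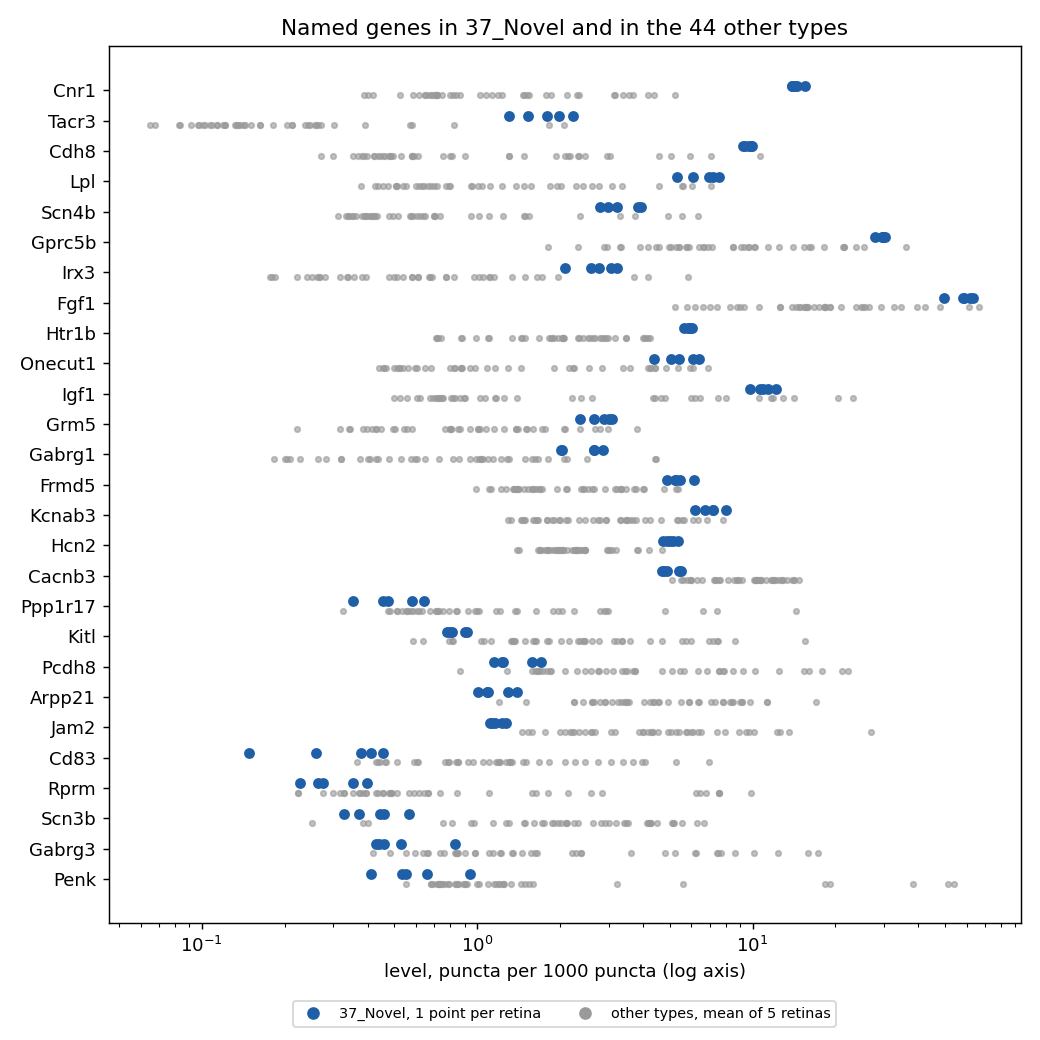
Level of each named gene in puncta per 1000 puncta on a log axis, with 1 blue point per retina for 37_Novel and 1 grey point per other type (mean of 5 retinas). Cnr1 at 13.9 to 15.6 stands clear of every other type, whereas Frmd5 and Hcn2 meet the next types.

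Over the whole panel 60 of 300 genes (20%) had a higher level in 37_Novel than the mean of the other types in all 5 retinas and 156 (52%) a lower one, with a median log2 difference of -0.36. RGC transcription factors lay further down, with 2 of 23 higher (Irx3 and Onecut1), 19 lower and a median of -1.25. Of 14 glutamate receptor genes 3 were higher and 9 lower, with a median of -0.74. Of 31 potassium channel genes and partners 11 were higher and 13 lower, with a median of -0.08, and of 16 calcium channel genes 4 were higher and 8 lower, with a median of -0.25. Of 9 sodium channel genes 4 were higher and 5 lower, with a median of -0.64, and of 15 GABA and glycine receptor genes 3 were higher and 6 lower, with a median of -0.15. Both HCN genes differed from the other types, 1 in each direction, and of 7 neuropeptide and hormone genes 2 were higher and 3 lower, with a median of 0.07. Of 5 cadherins and protocadherins 2 were higher and 3 lower, of 10 genes for transmitter synthesis and transport 2 were higher and 2 lower, and of 3 calcium buffers none was higher and 1 lower. Their medians were -1.50, -0.29 and -0.23. No gene of the cholinergic receptor list and no marker listed for 37_Novel itself is on the panel.

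The profile over 300 genes was most like those of 27_Novel, 18_Novel and 41_AlphaONT, with Pearson correlations of 0.950, 0.947 and 0.939 across genes, which share one probe set and are not independent replicates. Cnr1 and Tacr3 had a higher level in 37_Novel than in each of these types. Lpl differed most from 27_Novel, with 6.62 ± 0.90 puncta per 1000 in 37_Novel and 0.948 ± 0.019 in 27_Novel. Scn4b had 3.35 ± 0.51 in 37_Novel and 0.697 ± 0.101 in 18_Novel. Pcdh11x, a protocadherin, had 2.63 ± 0.23 in 37_Novel, against 10.3 ± 1.17 in 27_Novel and 10.2 ± 0.48 in 18_Novel. Etv1, a transcription factor, had 1.08 ± 0.17 in 37_Novel and 20.4 ± 3.16 in 41_AlphaONT, and Spp1 had 6.38 ± 0.88 in 37_Novel and 25.5 ± 2.54 in 41_AlphaONT.

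Summed marker levels were also taken for each class of retinal cell. The 7 RGC markers summed to 73.0 to 77.1 puncta per 1000 in 37_Novel over the retinas and to 82.0 to 87.8 in the other types. The 14 amacrine markers summed to 37.8 to 43.3 in 37_Novel and 41.2 to 43.9 in the other types, and the 11 bipolar markers to 4.13 to 6.24 in 37_Novel and 9.10 to 11.4 in the other types. The 3 rod markers summed to 2.20 to 5.42 in 37_Novel and 2.60 to 5.80 in the other types, the 5 Müller glia markers to 3.87 to 4.82 in 37_Novel and 4.70 to 6.40 in the other types, and the 5 horizontal cell markers, Onecut1 among them, to 13.7 to 16.7 in 37_Novel and 12.4 to 13.5 in the other types. The sums of the RGC and bipolar lists were thus lower in 37_Novel and that of the horizontal cell list higher. The amacrine, rod and Müller glia ranges overlapped with those of the other types. Of the 5 horizontal cell genes only 1 was higher and 1 lower in all 5 retinas, with a median log2 difference of 0.0025. Their sum ranked 11 among the types. Markers of cones, astrocytes, microglia, endothelium and pericytes, with 1 or 2 genes each on the panel, stayed at or below 1.17 in 37_Novel.

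The label was checked by asking which of the 45 type profiles, built from the other 4 retinas, made the counts of a cell most probable. Of the 858 cells 517 (60.3%) fitted the 37_Novel profile best, against 77.1% for their own type over all cells, which ranked 37_Novel 39 of 45. The share was 65.4, 62.1, 51.2, 55.2 and 62.2% in retinas 1 to 5. Another 91 cells fitted 42_AlphaOFFS best, 64 fitted 43_AlphaONS and 35 fitted 18_Novel. In the other direction, 150 cells of other types fitted 37_Novel best, of which 90 were 18_Novel cells.

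The members differed widely among themselves in Cnr1. The median cell had 3 Cnr1 puncta and the highest 30, and the variance of 22.0 was well above the mean of 4.76. There were 493 cells with 3 or more puncta, 199 with 1 or 2 and 166 with none. Cells without Cnr1 made up 18.96, 17.05, 17.9, 26.9 and 12.2% of the type in retinas 1 to 5. They were also shallower and smaller: median puncta averaged 413 ± 47 in cells with 3 or more Cnr1 puncta and 169 ± 9.4 in cells with none (SD, n = 5). The median volume averaged 804 ± 71 in cells with 3 or more and 407 ± 57 in cells with none, in the deposited unit, which is not stated. A Cnr1 count of 0 therefore moves with depth. This split was chosen after the values were seen, so what follows is a description with no test.

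Cells with and without Cnr1 differed in the other genes as well. Cdh8 had 11.3, 11.7, 13.2, 12.02 and 11.2 puncta per 1000 in cells with 3 or more Cnr1 puncta of retinas 1 to 5, against 2.50, 2.52, 0.77, 1.3 and 1.7 in cells with none. Spp1 ran the other way, with 1.92, 1.97, 2.37, 1.07 and 1.14 in cells with 3 or more and 26.7, 25.4, 29.9, 28.2 and 32.3 in cells with none. Each value is a level summed over the cells of a group in a retina, and single cells were not compared. Both genes were picked for their size of difference. Cells with 1 or 2 Cnr1 puncta lay between, at 5.25 ± 0.77 for Cdh8 and 13.5 ± 2.46 for Spp1.

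Onecut1, Tacr3, Grm5, Irx3 and Igf1 followed Cdh8. Onecut1 had 6.47 ± 0.91 in cells with 3 or more Cnr1 puncta and 1.74 ± 0.73 in cells with none, and Igf1 had 12.2 ± 1.09 in cells with 3 or more and 5.63 ± 1.02 in cells with none. Coch, the extracellular protein cochlin, and Etv1 followed Spp1, with 2.09 ± 0.38 for Coch in cells with 3 or more and 12.9 ± 2.21 in cells with none, and 0.48 ± 0.09 for Etv1 in cells with 3 or more and 4.76 ± 1.03 in cells with none. Of 299 genes other than Cnr1, 44 (14.7%) were higher and 48 (16.1%) lower in cells with 3 or more in all 5 retinas. Spp1 and Cdh8 were also compared at like depth: among cells of 150 to 299 puncta, 102 with 3 or more Cnr1 puncta had 1.95 ± 2.17 of Spp1 and 11.1 ± 1.59 of Cdh8, and 98 with none had 28.9 ± 5.10 of Spp1 and 1.99 ± 0.87 of Cdh8. Spp1 in the 4 alpha types had 25.5 to 43.02 and in 18_Novel 1.86.

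**Figure D2:**
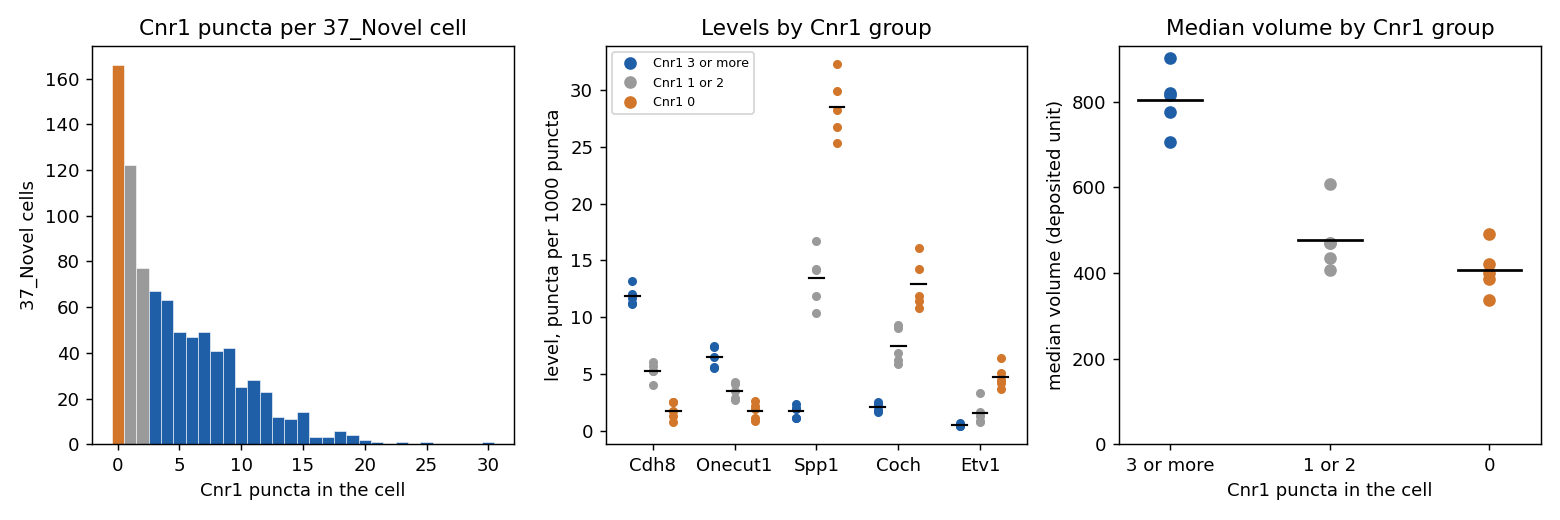
Left, number of 37_Novel cells by Cnr1 puncta per cell; middle, level of 5 genes in puncta per 1000 puncta; right, median volume in the deposited unit, each with 1 point per retina, a bar at the mean and colours for cells with 3 or more (blue), 1 or 2 (grey) and 0 (orange) Cnr1 puncta. Spp1 lies between 1.07 and 2.37 in the blue cells and between 25.4 and 32.3 in the orange ones.

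With Cnr1 left out of the profiles, 437 of the 493 cells with 3 or more Cnr1 puncta (88.6%) still fitted 37_Novel best, against 17 of the 166 cells with none (10.2%). Of the cells with none, 127 (76.5%) fitted 1 of the 4 alpha profiles best, led by 42_AlphaOFFS with 54, whereas 9 of the cells with 3 or more (1.83%) did. Of the 199 cells with 1 or 2 puncta, 58 fitted 37_Novel and 76 an alpha profile. In volume the cells with none were unlike the alpha types, with a median of 407 ± 57 in the deposited unit. The medians were 694 in 41_AlphaONT, 880 in 42_AlphaOFFS, 915 in 43_AlphaONS and 907 in 45_AlphaOFFT. The 37_Novel profile was itself built mostly from cells with 3 or more Cnr1 puncta, and the groups were not matched for depth here. These shares therefore describe the groups and do not test the label. Bipolar markers summed to 2.99 to 4.92 puncta per 1000 in cells with 3 or more Cnr1 puncta and 7.30 to 28.9 in cells with none, and rod markers to 1.86 to 5.15 in cells with 3 or more and 3.03 to 26.3 in cells with none. The part of these markers in the difference was not tested. The results below are given for all 858 cells, with the value for the 493 cells with 3 or more Cnr1 puncta beside those that it changes; these values were added after the data were seen.

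Where 37_Novel cells lay was measured by their share of all RGCs on either side of 3 axes, which the authors had scaled to a circle and whose anatomical direction is not given. On the Y axis, the share was 0.702, 0.776, 0.682, 0.853 and 0.756% on the positive side of retinas 1 to 5 and 0.492, 0.541, 0.587, 0.631 and 0.562% on the negative side. The positive side was higher in 5 of 5 retinas and the groups did not overlap. Among cells with 3 or more Cnr1 puncta the share was 0.445, 0.453, 0.356, 0.479 and 0.408% on the positive side and 0.285, 0.342, 0.260, 0.301 and 0.418% on the negative side, so that retina 5 ran the other way and the groups overlapped. Over all 37_Novel cells the log2 difference of 0.43 ± 0.13 (SE) did not pass in edgeR (adjusted p = 0.098), and of all 45 types 0% passed on this axis. With 27 sections in place of retinas as the block it passed (adjusted p = 0.017), but sections of a retina are not independent replicates. Among cells with 3 or more Cnr1 puncta it was 0.45 (adjusted p = 0.139).

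On the X axis the share averaged 0.744 ± 0.084% on the positive side and 0.580 ± 0.057% on the negative side, with retina 2 at 0.636% and 0.653%. The log2 difference was 0.31 ± 0.13 (SE; edgeR adjusted p = 0.107), and 28.9% of types passed. Without retina 2 it passed, at 0.44 (adjusted p = 0.044), and among cells with 3 or more Cnr1 puncta it was 0.18 (adjusted p = 0.470). In the quadrant positive on both axes 37_Novel made up 0.849 ± 0.058% of RGCs, and in the quadrant negative on both 0.515 ± 0.076%.

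Along the radial axis 37_Novel made up 0.617, 0.714, 0.504, 0.810 and 0.759% of RGCs in the periphery and 0.551, 0.512, 0.768, 0.556 and 0.619% in the centre. Retina 3 alone ran the other way. The log2 difference of 0.26 ± 0.14 (SE) did not pass (edgeR adjusted p = 0.152), against 42.2% of types that did, and without retina 3 it passed at 0.39 (adjusted p = 0.019). For the cells with 3 or more Cnr1 puncta the radial difference was 0.12 (edgeR adjusted p = 0.565). Median puncta per 37_Novel cell were 314, 269.5, 241.5, 226 and 285 in the periphery of retinas 1 to 5. In the centre they were 333, 289, 324.5, 338 and 335. The part of this depth difference in the smaller value was not tested.

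**Figure D3:**
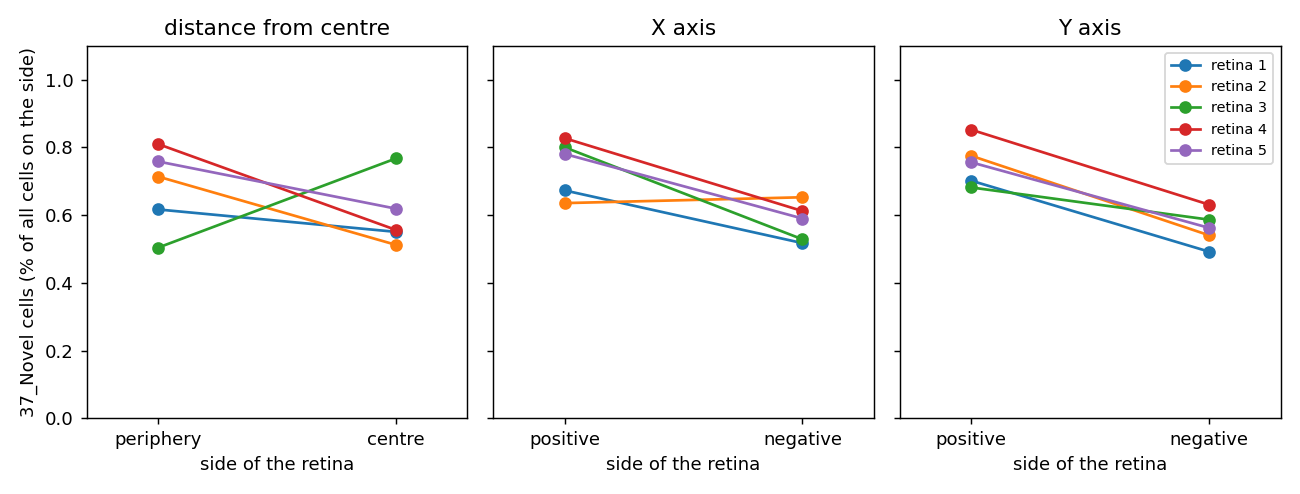
Share of 37_Novel cells among all RGCs, in percent, on the 2 sides of the radial, X and Y axes, with 1 line per retina. On Y the positive side lies higher in 5 of 5 retinas; on the radial axis retina 3 has 0.504% in the periphery and 0.768% in the centre.

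Within 37_Novel, 4 of 181 genes tested (2.21%) differed between periphery and centre in edgeR, next to 2.08% of all type-gene pairs, so the type stood close to the background. Gabrg1 had 2.80, 2.29, 3.08, 2.96 and 3.59 puncta per 1000 in the periphery of retinas 1 to 5 and 2.16, 1.38, 1.47, 1.83 and 2.19 in the centre. It rose in the periphery in 5 of 5 retinas, by 0.70 ± 0.15 on the log2 scale (SE, adjusted p = 0.016), and the groups did not overlap. Spon1, a secreted matrix protein, had 7.01, 6.83, 6.06, 8.73 and 8.76 in the periphery and 5.10, 5.21, 6.33, 4.84 and 5.30 in the centre. It rose by 0.51 ± 0.12 (SE, adjusted p = 0.026), with retina 3 as the exception. Igfbp2, which binds insulin-like growth factors, had 1.37, 1.34, 1.28, 2.27 and 1.095 in the periphery and 0.84, 0.85, 1.23, 0.83 and 0.81 in the centre, and rose by 0.75 ± 0.20 (SE, adjusted p = 0.049). Gabrg3 had 0.40 ± 0.07 in the periphery and 0.77 ± 0.25 in the centre and fell by 0.94 on the log2 scale (SE 0.25, adjusted p = 0.047). These are few puncta, 0.128 per cell in the periphery and 0.264 in the centre.

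The count of calls changed with the setting. DESeq2 called 0 of the genes, edgeR without the retina block called 0, and edgeR without retina 2 or without retina 5 called 0. Each of the 4 genes had the same direction in every alternative in which it was tested. Among cells with 3 or more Cnr1 puncta, in which retina 3 was dropped because it had 14 peripheral cells, 6 genes passed. Spon1 rose by 0.62 (adjusted p = 0.0021) and Igfbp2 by 0.98 (adjusted p = 0.047), while Gabrg1 stood at 0.59 (adjusted p = 0.058) and Gabrg3 was not tested. The other 4 were Rlbp1 and Gria3, higher in the periphery, and Sv2c and Grm4, lower.

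Spon1 was the only gene of 300 (0.333%) whose radial difference in 37_Novel departed from that of the other types as a whole, by 0.50 ± 0.11 (SE, edgeR interaction, adjusted p = 0.036). Against the 3 most similar types the same departure was 0.55 (adjusted p = 0.093). Without retina 1, 2, 4 or 5 it did not pass, with adjusted p-values of 0.104 to 0.665.

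Along X, 0 of 207 genes passed in edgeR, next to 0.215% of all type-gene pairs, with 26 (12.6%) at an unadjusted p under 0.05 and 0 called by DESeq2. Adjusted over the genes of 37_Novel alone 4 (1.93%) passed, Nefh and Spp1 higher and Cdh8 and Gabra4 lower on the positive side. Cdh8 had 8.75 ± 0.61 on the positive side and 10.8 ± 0.23 on the negative side, in the same direction in 5 of 5 retinas. Among cells with 3 or more Cnr1 puncta the log2 difference was -0.21 for Cdh8 (adjusted p = 0.295) and 0.26 for Spp1 (adjusted p = 0.783). Along Y, 0 of 212 genes passed in edgeR, next to 0.00876% of all type-gene pairs, with 10 (4.72%) at an unadjusted p under 0.05 and 0 by DESeq2. Departures from the other types passed for 0 of 300 genes along X (26, or 8.67%, at an unadjusted p under 0.05) and for 0 of 300 along Y (18, or 6%). DESeq2 called 0 along X and 3 along Y.

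The volume of 37_Novel cells did not differ detectably from that of the other types. Medians were 642, 603, 772, 515 and 620 in 37_Novel of retinas 1 to 5 and 595, 597, 642, 529 and 622 in the other cells. The log2 difference was 0.07 ± 0.04 (SE; limma adjusted p = 0.136), while 68.9% of types passed. For the cells with 3 or more Cnr1 puncta it was 0.43 ± 0.02 (SE). The Cnr1 count itself moved with volume and puncta, as given above, and the other types were not cut by it. This value therefore cannot test the volume of the type.

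Cell volume was lower in the periphery than in the centre in 5 of 5 retinas. Peripheral medians were 642, 595, 595, 485 and 558 and central medians 669, 648, 889, 606 and 654 in retinas 1 to 5. The log2 difference was -0.26 ± 0.07 (SE, limma adjusted p = 0.011), and 37_Novel was the 1 of 44 types (2.27%) to pass. This fit pooled the variance over types, so all types with 5 retinas share that SE. It is not the spread of 37_Novel itself, whose retinas ranged from -0.58 to -0.06. With mean volumes the log2 difference was -0.13 (limma adjusted p = 0.993). In cells with 3 or more Cnr1 puncta it was 0.0032 ± 0.078 (SE, limma adjusted p = 0.990). The Cnr1 count moved with volume, so this cut cannot test the radial volume difference. That fit also left out retina 3, which had 14 such cells in the periphery. Over all 37_Novel cells retina 3 had the largest difference, at -0.58, so the 2 values rest on unlike sets of retinas. In retinas 1 to 5, 80.6, 68.8, 34.1, 71.2 and 42.4% of cells with 3 or more Cnr1 puncta lay in the periphery, against 75, 73.3, 40, 90.7 and 75% of cells without Cnr1. The part of this mixture in the volume difference was not tested.

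Finally, the spacing of 37_Novel cells was measured by counting other 37_Novel cells among the 20 nearest RGCs of each and among the 21st to 100th nearest. In retinas 1 to 5 the 20 nearest held 10, 20, 6, 13 and 6 such cells and the outer ring 67, 127, 35, 105 and 42. As shares of the neighbours these were 0.321% ± 0.055 among the nearest and 0.544% ± 0.0996 in the ring. The log2 ratio, with 0.5 added to the nearest count and 2 to the ring count, was -0.72 ± 0.09 (SE, limma adjusted p = 6.2e-04), lower among the nearest in 5 of 5 retinas. A like deficit passed in 31 of the 45 types (68.9%), so it was not particular to 37_Novel. The share was lowest among the 5 nearest cells, with 7 of 4275 neighbours, and 0.632% ± 0.104 at ranks 101 to 200. The median distance to the nearest 37_Novel cell was 152 ± 12.5 in the deposited unit, the 3rd longest of the types. This distance was not adjusted for how rare a type is. 44_Novel and 35_Novel, with longer distances, ranked 45 and 44 by share, and 37_Novel ranked 41.

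The count was also made among the cells with 3 or more Cnr1 puncta alone. The 20 nearest then held 2, 2, 0, 0 and 0 such cells and the ring 24, 34, 5, 11 and 7. With none among the nearest in 3 of 5 retinas, a ratio would rest on the constant added, so none is given, and the difference from the count over all 37_Novel cells was not tested.

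**Figure D4:**
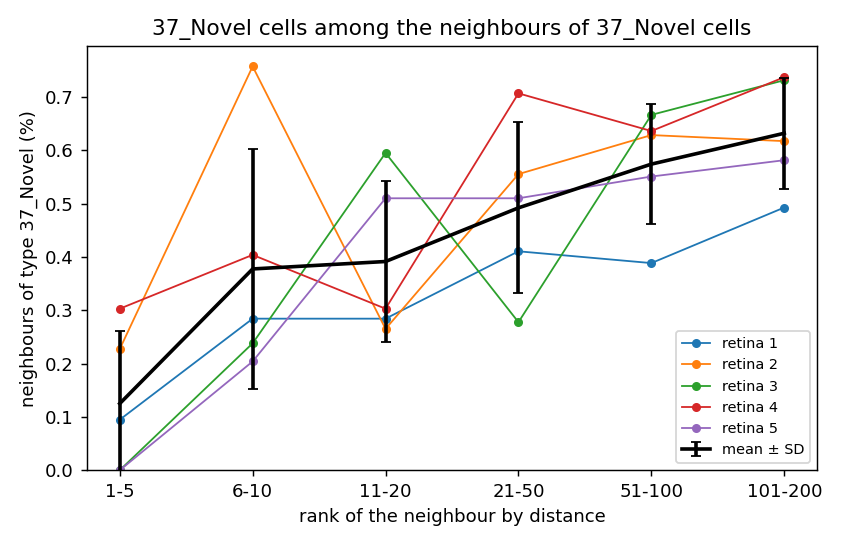
Percentage of neighbours that are 37_Novel cells, by rank of the neighbour's distance from a 37_Novel cell, with 1 line per retina and the mean ± SD in black. The mean is 0.125% at ranks 1 to 5 and 0.632% at ranks 101 to 200.

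No other type was depleted or enriched near 37_Novel cells in limma over all pairs of types (0 of 44, next to 0.0505% of all pairs, with 7, or 15.9%, at an unadjusted p under 0.05). The nearest to passing was 17_Tbr1_S1, which made up 2.51, 3.11, 2.74, 2.68 and 2.60% of the 20 nearest cells and 2.12, 2.53, 2.22, 2.25 and 1.95% of the ring. Its log2 ratio was 0.30 ± 0.04 (SE, adjusted p = 0.068), in the same direction in 5 of 5 retinas.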

How the data were processed

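The authors imaged transcripts with Xenium, which decodes single RNA molecules in tissue as spots called puncta, on en face cryosections of mouse retina 20 µm thick, per the labels' protocols. The deposited table holds raw puncta counts per cell for 300 genes, per the file headers. It also names each cell's type, retina, slide and section and gives its position and volume. Segmentation, filters and the way types were assigned are not given in the sources used here. No cell had fewer than 100 puncta or a class other than RGC.

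A level is the puncta of a gene per 1000 puncta of all panel genes, summed over the cells of a type in a retina. The retina was the replicate (n = 5). The labels list 4 samples, fewer than the retinas, and tie no retina to a sample or to an animal, so p-values measure the spread between these retinas, and 2 slides each hold sections of 2 retinas. In the limma fits each variance was drawn toward a value shared over types or pairs. In the radial volume fit the same variance served all types. The radial axis was split at 0.5 and the X and Y axes at 0. Cell counts and puncta sums of at least 20 cells were fitted with edgeR 4.0.16 in R 4.3.3 (quasi-likelihood, retina as a block; TMM and filterByExpr for genes). Volumes and neighbour ratios, as log2 ratios per retina, were fitted with limma 3.58.1. P-values were Benjamini-Hochberg adjusted over all 45 types or all type-gene pairs with a threshold of 0.05. DESeq2 1.42.0 was an alternative. The edgeR and limma fits, but not DESeq2, were run on simulated data. The edgeR fit of genes within a type was held there only to the direction of change, not to its rate of calls. Python 3.11.15 with numpy 2.4.6, pandas 2.3.3, scipy 1.17.1 and matplotlib 3.10.9 did the rest.

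The cell type, the lists and the rule for naming genes were chosen with earlier results of these data known. The rule names up to 15 genes higher and 10 lower than the mean of the 44 other types, at 0.5 puncta per cell or more and in the same direction in 5 retinas. It adds genes whose level was the highest or lowest of the 45 types, up to 6 genes in each direction against each of the 3 most similar types, and genes that passed a positional test. The split of cells by Cnr1 puncta was chosen after the values were seen; no other cut was tried. Genes of that split were picked for their size of difference. The profile check without Cnr1, the finer neighbour ranks and the fits on cells with 3 or more Cnr1 puncta were likewise added after seeing the data.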

Additional observations from a re-analysis of the deposited data

Results flagged for a closer look

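Among 39 sets of 5 retina values examined for 37_Novel, 2 had a retina far from the other 4 by Dixon's criterion, and chance marks about 1 in 20 sets. Gprc5b had 27.7 puncta per 1000 in retina 3 and 29.5 to 30.2 in the others. Gabrg3 had 0.829 in retina 5, the highest of the 5. Spon1 differed in its radial change between 37_Novel and the other types by 0.50 on the log2 scale in the edgeR interaction test given above.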

How the results depend on the processing

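The deficit of same-type neighbours passed in each limma alternative on all 37_Novel cells, at -0.66 to -0.78 with 1 retina left out, and only the exact sign-flip permutation test, on the same -0.72, missed (adjusted p = 0.083); 5 retinas allow no unadjusted p below 0.0625. Radial volume (-0.26) kept its direction but not its call with mean volumes (-0.13), sides split at the median (-0.25) and the sign-flip test (-0.26), and ranged from -0.31 to -0.18 with 1 retina left out, passing only without retina 2. In cells with 3 or more Cnr1 puncta, a cut that moves with volume and left out retina 3, it turned to 0.0032, which is no test either. Volume against the other types passed with mean volumes (0.084) and without retina 2 or 4 (range 0.020 to 0.096), and turned to -0.0034 against the 3 most similar types. In cells with 3 or more Cnr1 puncta it was 0.43, but that cut moves with volume, so its call is no test. The share passed along the radial axis with 26 sections as the block (0.34) and without retina 3 (range 0.17 to 0.39), along X with sides split at the median (0.38) and without retina 2 (range 0.27 to 0.44), and along Y with no retina block (0.43), with 27 sections as the block (0.39) and without retina 3 (range 0.41 to 0.48). Sections of a retina share that retina, so the section fits count them as more replicates than there are retinas.

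Retina is the pairing of the 2 sides, and dropping that block left 0 radial genes called within 37_Novel in place of 4. DESeq2 called 0, edgeR without TMM 2, without the filter 2, and with 1 retina left out 0 to 7. Along X the count of 0 became 4 adjusted over the genes of 37_Novel, 1 with sides split at the median and 0 to 3 with 1 retina left out. The radial departure from other types was 0 against the 3 most similar types and 0 to 2 with 1 retina left out; along X it was 1 against the 3 most similar types, and along Y 3 with DESeq2 and 0 to 1 with 1 retina left out. The cause of these changes was not tested. All other alternatives for these results left the call and direction as reported.

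Puncta limit what can be seen: a median of 249 to 323 per cell over 300 genes leaves many genes at 0 or 1 in a cell, and 3 and 5, the retinas with fewest members, weigh as much as the others in the limma fits. Cells without Cnr1 differed in Spp1 and Cdh8 at like depth, so values over all 858 cells are means over cells of unlike levels in these genes. Of the cells without Cnr1, 76.5% fitted an alpha profile best, a share not matched for depth that does not test the label.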
